A study of Homo sapiens with 6 samples.

Results

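Breast luminal cells are marked by genes of secretion and of hormone response, and 8 of these genes were followed here in a pair of lobular breast cancer cell lines. They were TFF3, TFF2, AGR2, MLPH, SCUBE2, BCAS1, PRLR and NAT1, taken as a list of names and measured by every probe set that the platform annotation gives to each gene alone. All 8 genes were measured, by 11 of the 22215 probe sets that are not controls, with 4 probe sets for PRLR and 1 for each of the others. The tests ran on 11963 genes, each represented by its brightest probe set.

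The arrays compared SUM44 cells with LCCTam cells, 3 cultures of each. Both are labelled as ER+/PR+ invasive lobular breast carcinoma lines, grown in Ham's F12 medium until not yet confluent. SUM44 is labelled sensitive to tamoxifen and its cultures received 500 nM 4-hydroxytamoxifen (4HT), the active form of the drug, for 24 hours. LCCTam, a line derived from SUM44 and labelled resistant, was held without 4HT for 14 days. Line and drug exposure changed together, so their parts in any difference cannot be told apart. Values are log2 levels, and every difference is LCCTam minus SUM44.

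Trefoil peptides are small, tightly folded proteins that glandular epithelia release together with mucins. AGR2 is a protein disulfide isomerase of the endoplasmic reticulum that helps secretory proteins to fold, and it is made by luminal, estrogen receptor-positive breast cells. MLPH (melanophilin) links Rab27 on vesicles to class V myosin, SCUBE2 is a secreted and surface-bound glycoprotein that helps to release Hedgehog ligands, and PRLR is the receptor of prolactin, which drives milk production through JAK2 and STAT5. NAT1 acetylates arylamines, and BCAS1 is named for its amplification in breast carcinoma. High levels of several of these transcripts are used to recognise luminal breast tumours.

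The RefSeq promoter table for GRCh38.p14 held entries for 4 of the 8 genes, AGR2, MLPH, SCUBE2 and PRLR, in 6 windows. The 250 bases before each annotated start of MLPH and SCUBE2 are given because MLPH was lower and SCUBE2 higher in LCCTam. MLPH has 2 annotated starts, at the ends of chr2:237487001-237487250 and chr2:237486160-237486409 on the + strand. The SCUBE2 window lies at chr11:9091600-9091849 on the - strand. Capitals mark motif matches.

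MLPH, window 1: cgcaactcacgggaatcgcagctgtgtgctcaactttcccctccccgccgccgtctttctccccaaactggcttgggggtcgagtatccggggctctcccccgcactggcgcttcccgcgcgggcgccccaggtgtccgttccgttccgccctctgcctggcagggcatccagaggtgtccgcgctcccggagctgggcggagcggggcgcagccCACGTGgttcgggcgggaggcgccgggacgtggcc
MLPH, window 2: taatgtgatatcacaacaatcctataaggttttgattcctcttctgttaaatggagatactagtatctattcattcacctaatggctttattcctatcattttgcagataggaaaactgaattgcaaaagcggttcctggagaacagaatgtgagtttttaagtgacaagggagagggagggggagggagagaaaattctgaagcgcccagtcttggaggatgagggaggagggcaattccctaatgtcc
SCUBE2: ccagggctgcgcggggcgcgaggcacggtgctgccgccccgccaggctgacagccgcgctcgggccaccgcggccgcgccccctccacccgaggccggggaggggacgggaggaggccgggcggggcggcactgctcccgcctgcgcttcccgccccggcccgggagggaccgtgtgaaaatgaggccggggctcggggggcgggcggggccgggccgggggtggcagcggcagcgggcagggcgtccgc

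G and C made up 83.6% of the SCUBE2 window, more than in 99.1% of all 35116 promoter windows, whose median was 58%. The MLPH windows held 72.4% and 41.6%, and the AGR2 window 40.4%. Each window was searched on both strands for the core of the estrogen response element GGTCA, the full element GGTCANNNTGACC (which contains that core), the forkhead motif TGTTTAC, the STAT palindrome TTCNNNGAA, the E-box CACGTG and the TATA box TATAAA. Those letters occur in 32.6%, 0.0399%, 2.98%, 6.57%, 6.34% and 10.7% of all windows. Among the windows of the 4 genes there were 2 matches, an E-box 35 to 30 bases before the first MLPH start and a TATA box on the reverse strand 194 to 189 bases before 1 of the PRLR starts. The SCUBE2 and AGR2 windows held none of these letters.

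The 8 markers did not move as a block. TFF3 and SCUBE2 rose in LCCTam, TFF2, MLPH and NAT1 fell, and AGR2, BCAS1 and PRLR did not pass the test. Thus 2 of 8 were called higher and 3 of 8 lower by limma at an adjusted p under 0.05, beside 9.18% of all genes called higher and 6.6% called lower. The LCCTam arrays lay wholly above the SUM44 arrays for the same 2 genes and wholly below them for the same 3, where 21.8% and 13.5% of all genes did so. The 8 names were chosen with earlier results of these arrays known, so their share is a description and not evidence about luminal genes at large.

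**Figure D1:**
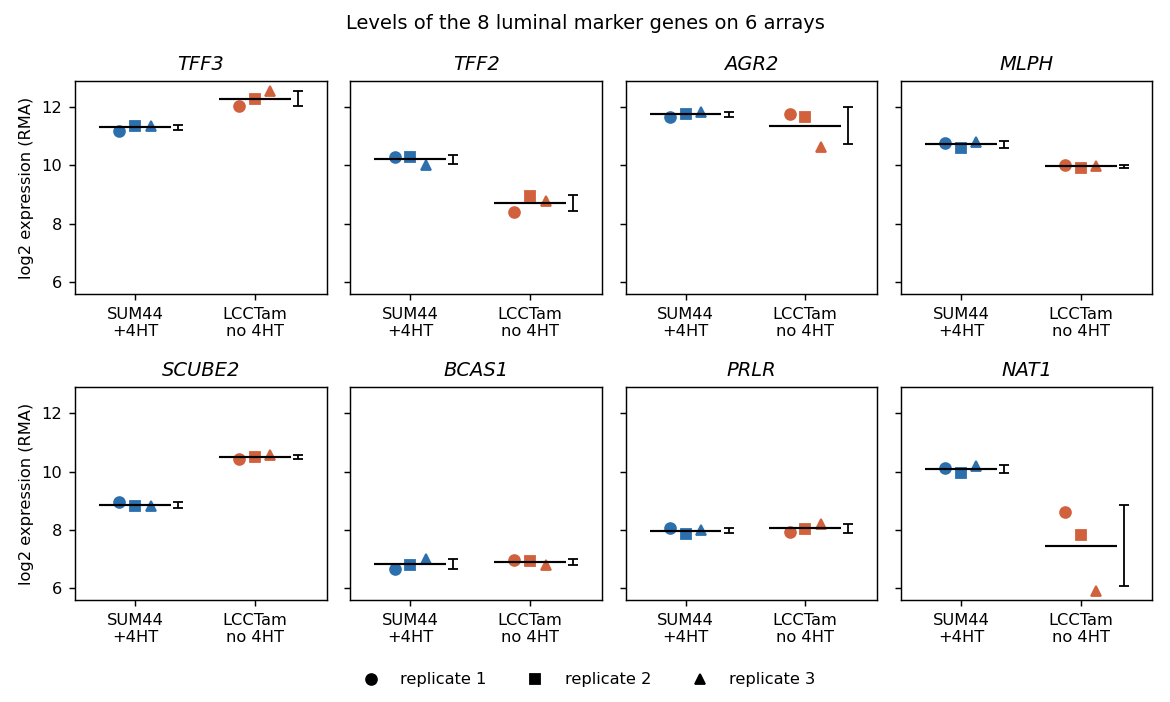
Log2 expression (RMA) of the 8 marker genes by group, with 1 point for each of 6 arrays, a line at the group mean and a bar of ± 1 SD (n = 3). The groups are separate for TFF3, TFF2, MLPH, SCUBE2 and NAT1, and the LCCTam points of NAT1 spread from 8.62 down to 5.91.

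Among the secreted peptides, TFF3 was at 11.19, 11.37 and 11.36 in SUM44 replicates 1, 2 and 3 and at 12.04, 12.27 and 12.56 in LCCTam replicates 1, 2 and 3. Each LCCTam culture was therefore above each SUM44 culture. The means of 11.31 ± 0.10 (SD, n = 3) and 12.29 ± 0.26 differed by 0.99 ± 0.15 (SE), or 1.98-fold (adjusted p = 0.00519). TFF2, a trefoil peptide best known from the stomach, was at 10.29, 10.29 and 10.03 in SUM44 and at 8.41, 8.95 and 8.79 in LCCTam. Every LCCTam culture was thus below every SUM44 culture. The means of 10.20 ± 0.15 (SD, n = 3) and 8.72 ± 0.27 differed by -1.49 ± 0.16, or 2.81-fold (adjusted p = 0.00136).

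TFF2 and TFF3 are neighbours on chromosome 21, and the measured gene on the other side of TFF2 is TFF1, the estrogen-induced trefoil peptide. TFF1 stood at 11.60, 11.65 and 11.57 in SUM44 and at 12.89, 13.21 and 12.63 in LCCTam, a rise of 1.30 ± 0.15 (adjusted p = 0.00191). TFF2 was therefore called lower between a pair of genes that were called higher.

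The nearest measured gene on either side of the 3 trefoil genes rose. ABCG1, a cholesterol exporter next to TFF3, was at 6.57, 6.51 and 6.69 in SUM44 and 8.59, 8.85 and 9.25 in LCCTam, higher by 2.31 ± 0.17 (adjusted p = 0.000242). A second ABCG1 probe set gave 1.30 (adjusted p = 0.00274 over all probe sets). TMPRSS3, a membrane serine protease next to TFF1, rose by 1.95 ± 0.18 (adjusted p = 0.000596). Farther out, RIPK4 was called higher by 0.48, while C2CD2 (0.09), UBASH3A (0.49, adjusted p = 0.0748), SLC37A1 (0.0035) and TMPRSS2 (-0.03) were not called. RIPK4 kept its call in 1 of the 6 fits without an array. Of 16 measured genes listed from 21q22.3, a list that leaves out TFF2 and TFF3, 6 were higher and none lower. That was 37.5% called beside 15.8% of all genes, with a median of 0.18 beside 0.077 over all genes. The 6 were led by CBS (2.97), an enzyme of cysteine synthesis with a near-identical gene copy, and ABCG1. The others were TMPRSS3, TFF1, U2AF1 and RIPK4. All but CBS and U2AF1 are given above, so this share is largely not a separate observation. Without each array in turn, 5 to 7 of the 16 were called.

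**Figure D2:**
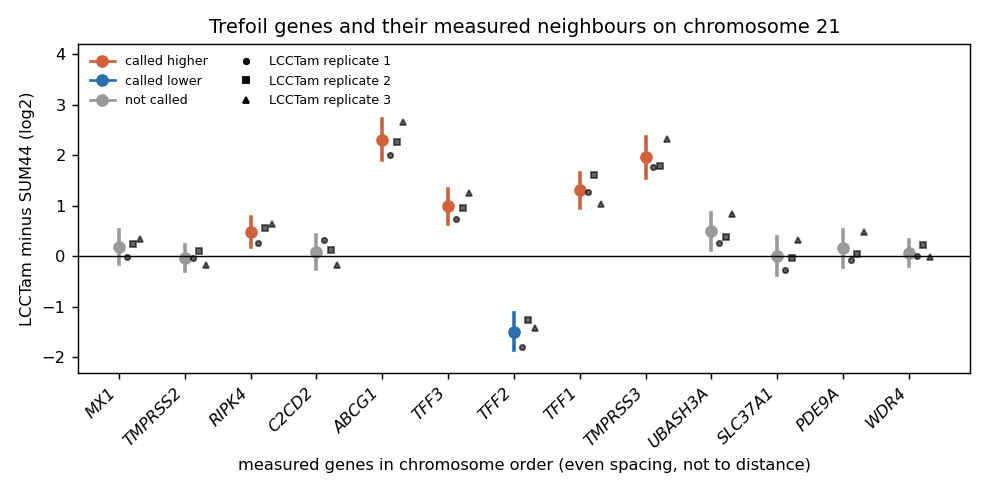
Difference LCCTam minus SUM44 (log2) of 13 measured genes in their order on chromosome 21, evenly spaced, with bars of the 95% confidence interval and small points for each LCCTam array against the SUM44 mean. TFF2 at -1.49 lies between TFF3 at 0.99 and TFF1 at 1.30.

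SCUBE2 had the largest rise of the 8 genes. It was at 8.96, 8.80 and 8.81 in SUM44 replicates 1, 2 and 3 and at 10.43, 10.51 and 10.56 in LCCTam. The groups stood far apart beside their spread, with means of 8.86 ± 0.09 (SD, n = 3) and 10.50 ± 0.07. The difference was 1.64 ± 0.10, or 3.13-fold (adjusted p = 0.00011), and it kept between 1.57 and 1.70 over 13 alternative settings.

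The Hedgehog genes around SCUBE2 did not pass the test. Of 14 measured, limma called 0, beside 15.8% of all genes, and 2 had an unadjusted p under 0.05. These 14 include CEP72, which is not a Hedgehog pathway gene, and leave out SCUBE2 itself. Their median difference was 0.12. PTCH1, the Hedgehog receptor and a standard target of the pathway, was at 5.42, 5.58 and 5.52 in SUM44 and 5.66, 5.80 and 5.94 in LCCTam, a difference of 0.29 (95% interval 0.03 to 0.56, adjusted p = 0.124). Both its means were dim, under 5.93, the lower quartile of mean levels over all genes. The other PTCH1 probe sets gave 0.08 and 0.17, neither of them called. SHH, GAS1, GPC3 and GPC5 were also under 5.93 in both groups, so their lack of a call says little. Without LCCTam replicate 1, 1 of the 14 genes was called.

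MLPH was lower in LCCTam with little spread among its cultures. It was at 10.78, 10.59 and 10.79 in SUM44 and at 10.01, 9.92 and 9.99 in LCCTam. All LCCTam values lay below all SUM44 values, and the means of 10.72 ± 0.11 (SD, n = 3) and 9.97 ± 0.05 differed by -0.75 ± 0.10, or 1.68-fold (adjusted p = 0.00383). Its range over 13 alternatives was -0.81 to -0.71.

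The genes of the proteins that MLPH joins did not pass the test, and their estimates had opposite signs. RAB27A, the vesicle GTPase, was at 7.36, 7.31 and 7.27 in SUM44 and 8.04, 7.81 and 7.46 in LCCTam (0.46 ± 0.15, adjusted p = 0.0877). MYO5A, the motor, was at 6.99, 6.32 and 6.48 in SUM44 and 6.25, 5.80 and 5.84 in LCCTam (-0.63 ± 0.20, adjusted p = 0.0745). Other probe sets gave -0.06 to 0.26 for RAB27A and 0.02 for MYO5A, none of them called. A wider list held Rab27 effectors, class V myosins, RAB27A and other Rab GTPases, and TYR. Of its 14 measured genes, 1 was higher and 1 lower, a share of 14.3% beside 15.8% over all genes. The higher one was MYRIP, a Rab27 effector of dim signal (0.43, adjusted p = 0.0464), and the lower one EXPH5, another Rab27 effector (-0.54, adjusted p = 0.0267). Between 0 and 7 of the 14 were called without each array in turn, and the 7 came without LCCTam replicate 1.

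AGR2 differed between the LCCTam cultures more than between the groups. It was at 11.66, 11.75 and 11.84 in SUM44 and at 11.78, 11.66 and 10.63 in LCCTam. LCCTam replicates 1 and 2 lay within the range of the SUM44 values, and replicate 3 lay 1.03 below the next. The mean difference was -0.39 ± 0.28 (95% interval -1.06 to 0.27, adjusted p = 0.391), and without LCCTam replicate 3 it was -0.03. The interval still holds a 2-fold fall, so the arrays do not show that AGR2 stayed level.

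Other disulfide isomerases and oxidases of the AGR2 family and its compartment held calls in both directions. Of 14 measured, 4 were lower, 1 was higher and 9 were not called, 35.7% called beside 15.8% of all genes. ERP44, which retains secretory proteins in the early secretory path, fell by 0.71 ± 0.12 (adjusted p = 0.00763), and PDIA3, which folds glycoproteins, by 0.52 ± 0.11 (adjusted p = 0.0212). ERO1A, the oxidase of these enzymes, fell by 1.15 and TMX4 by 0.48, while P4HB, the classical isomerase, rose by 0.51. The median of the list was -0.43. Without SUM44 replicate 1, 2 or 3 or LCCTam replicate 2, ERP44 alone kept its call. Without LCCTam replicate 1, 9 were called, 8 of them lower.

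Most genes of a mucus-secretory list, which includes the trefoil gene TFF1 but leaves out TFF2, TFF3 and AGR2, were not called. Of 13 measured, 3 were higher and none lower, 23.1% called beside 15.8% of all genes, with a median of 0.12. Those higher were TFF1, XBP1, a transcription factor of secretory cells (10.88 ± 0.02 and 11.35 ± 0.16, 0.47 ± 0.11, adjusted p = 0.0318), and SPDEF, a luminal and goblet cell factor (0.64, adjusted p = 0.0455). TFF1 was called without each array in turn, XBP1 in 2 and SPDEF in 1 of those 6 fits.

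NAT1 had the largest fall and the widest spread. It was at 10.12, 9.95 and 10.20 in SUM44 and at 8.62, 7.82 and 5.91 in LCCTam. Every LCCTam culture was below every SUM44 culture, yet the LCCTam cultures differed from each other by up to 2.71 on the log2 scale. The means were 10.09 ± 0.13 (SD, n = 3) and 7.45 ± 1.39, a difference of -2.64 ± 0.60, or 6.24-fold (95% interval -4.03 to -1.25, adjusted p = 0.0245). The lowest value lies just under the 5.93 named above and no detection calls were used, so that array may give only a bound and the fold is not exact.

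Only 5 of the 11963 genes had a larger SD over the LCCTam arrays than NAT1, while 4907 had a larger SD over the SUM44 arrays. No gene had a larger gap between LCCTam replicate 3 and the next lowest LCCTam array (1.90 for NAT1). NAT1 missed the threshold when any SUM44 array was left out (adjusted p = 0.0923 for replicate 1, 0.0771 for replicate 2 and 0.0966 for replicate 3) or when LCCTam replicate 2 was (0.0731). It was kept without LCCTam replicate 3, where the difference was -1.87 (adjusted p = 0.00222), and without LCCTam replicate 1 (-3.23, adjusted p = 0.000637). The range of adjusted p over all 13 alternatives was 0.000637 to 0.0966.

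**Figure D3:**
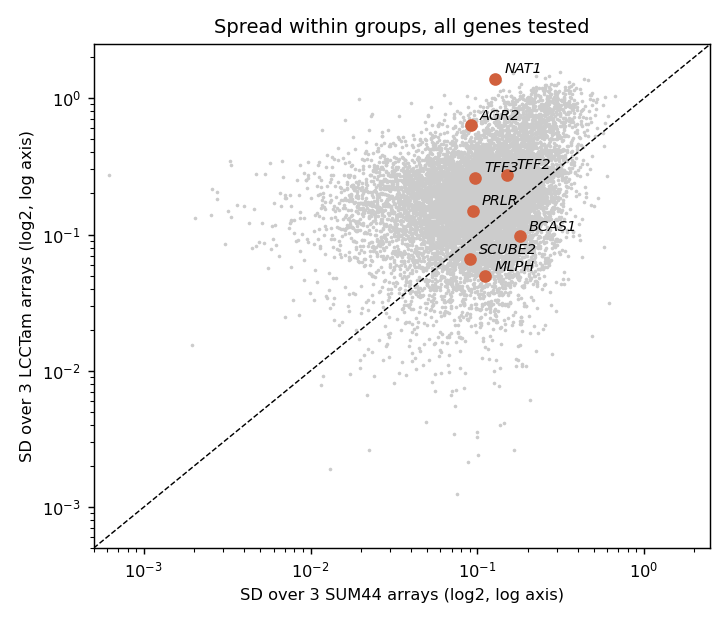
SD over the 3 SUM44 arrays (x) and over the 3 LCCTam arrays (y) of each gene tested, in log2 units on log axes, with the 8 marker genes named and a dashed line where both are equal. NAT1, with SDs of 0.13 and 1.39, lies near the top, while MLPH, SCUBE2 and BCAS1 lie below the line.

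Array levels correlated at 0.994 to 0.995 among SUM44 cultures and at 0.958 to 0.987 among LCCTam cultures. LCCTam replicate 3 was the farthest from SUM44 over all genes. Its absolute difference from the SUM44 mean had a median of 0.36 over all genes, against 0.22 and 0.15 for replicates 2 and 1. Among called genes, replicate 1 was the nearest of the 3 to SUM44 in 66.3%, and the share over all genes was not computed. Mean levels of the poly-A spike-in controls were 7.15, 7.05 and 6.68 in SUM44 and 7.10, 7.45 and 7.70 in LCCTam replicates 1, 2 and 3. The 3' minus 5' difference of the ACTB control was 0.21 in LCCTam replicate 3 and -0.11 to 0.08 on the other arrays, while that of the GAPDH control was 0.01 in LCCTam replicate 3 and highest, at 0.20, in SUM44 replicate 3. The part of these values in the low AGR2 and NAT1 of that array was not tested.

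Of the 6 nearest measured genes around NAT1 on chromosome 8, 2 were called lower and none higher, beside 6.6% of all genes lower. ASAH1, a lysosomal ceramidase on one side, was at 10.15, 9.79 and 10.01 in SUM44 and 9.39, 8.39 and 8.24 in LCCTam, a difference of -1.31 ± 0.29 (adjusted p = 0.0225). A second ASAH1 probe set was called at -1.22, and the others, at -0.24 and -0.05, were not. PSD3 was lower (-0.69, adjusted p = 0.0157), on each of its 3 probe sets. NAT2, the sister acetyltransferase between NAT1 and PSD3, differed by -0.22 ± 0.11 (95% interval -0.47 to 0.03, adjusted p = 0.209). FGL1, PCM1 and SH2D4A were not called. Among their 6 nearest measured genes, MLPH and PRLR also had 2 each called lower. AGR2 had 1 called lower, and SCUBE2 had 1 called higher. Besides NAT1, 6 acyltransferases of small molecules were listed and measured. Of these 6, SAT1, which acetylates polyamines, was called lower, at -1.50 ± 0.12 (adjusted p = 0.000445), and the other 5 were not called. That share of 16.7%, which does not count NAT1, was near the 15.8% of all genes.

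PRLR was called on none of its 4 probe sets, and 0 of them had an unadjusted p under 0.05. The brightest was at 8.05, 7.87 and 8.01 in SUM44 and at 7.92, 8.01 and 8.21 in LCCTam, with overlapping groups and a difference of 0.07 ± 0.12 (95% interval -0.20 to 0.34, adjusted p = 0.714). The other probe sets gave 0.13, 0.25 and -0.10 at lower means of 4.95 to 6.17 (adjusted p = 0.18 to 0.654 over all probe sets). On the one at 0.25 (5.73 and 5.98) the groups did not overlap, with an unadjusted p of 0.0534. The interval of the brightest holds no change as large as 1.5-fold in either direction.

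Most genes around the prolactin receptor were not called. Of 27 measured, 2 were higher and none lower, 7.41% beside 15.8% over all genes, with a median of 0.07. FYN, a kinase that associates with the receptor, rose by 0.79 ± 0.15 (adjusted p = 0.014), and PTPN6, a phosphatase that dampens cytokine receptors, by 0.36 ± 0.10 (adjusted p = 0.042). JAK2 (0.07), STAT5A (0.17), STAT5B (-0.02) and CISH, a feedback inhibitor induced by STAT5 (0.16), were not called. FYN kept its call in 3 and PTPN6 in 1 of the 6 fits without an array. Of 17 milk protein and alveolar genes, limma called 0, beside the same 15.8%, with 1 at an unadjusted p under 0.05 and a median of 0.09. Their casein and LALBA probe sets were all at means below 5.93 in both groups. Without each array in turn, 0 to 5 of the receptor genes and 0 or 1 of the milk genes were called.

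BCAS1 was likewise not called. It was at 6.65, 6.80 and 7.01 in SUM44 and at 6.98, 6.93 and 6.79 in LCCTam. The groups overlapped, and the difference was 0.08 ± 0.12 (95% interval -0.21 to 0.37, adjusted p = 0.692). None of its 6 nearest measured neighbours was called. Of 16 measured genes of 20q13 and the BCAS family, 1 was higher (ZFP64, a zinc finger protein, 0.52, adjusted p = 0.0244) and 1 lower (BCAS2, a splicing protein, -0.88, adjusted p = 0.0464). That was 12.5%, near the 15.8% of all genes, with a median of 0.03. Both calls were lost without each SUM44 array, and between 0 and 6 of the 16 were called over the fits without an array.

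**Figure D4:**
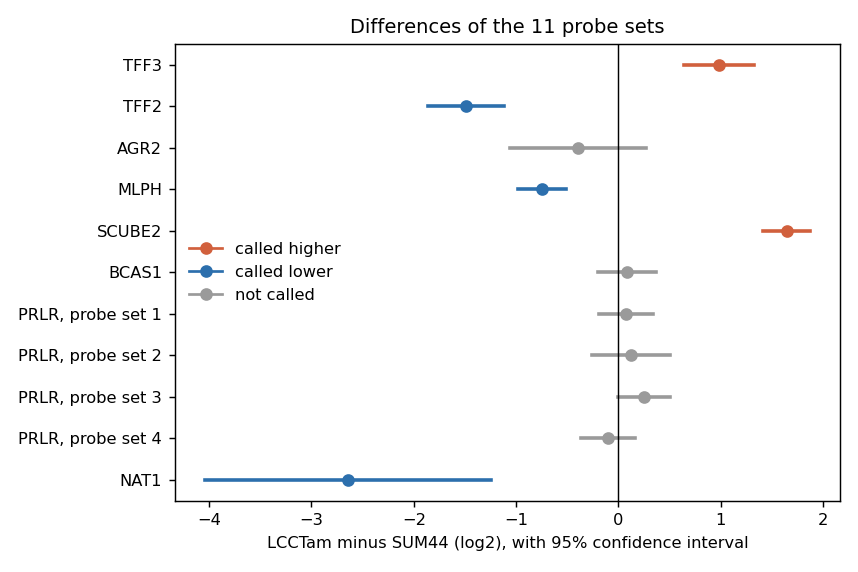
Difference LCCTam minus SUM44 (log2) of the 11 probe sets of the 8 genes, with points at the estimate and bars of the 95% confidence interval. The 4 PRLR probe sets all lie between -0.10 and 0.25, and NAT1 has the widest bar.

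Over all probe sets as units, 5 of the 11 were called, 2 higher and 3 lower, beside 7.55% higher and 5.96% lower of all 22215. They were the probe sets of the same 5 genes.

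A wider list of luminal tumour markers held both rises and falls. Among its 34 measured genes, limma called 9 higher and 13 lower, 64.7% beside 15.8% over all genes, with a median of -0.02. MUC1, a surface mucin, fell (-2.45 ± 0.13, adjusted p = 6.79e-05), as did CRIP1, a small LIM protein (-3.12 ± 0.20, adjusted p = 0.000118), and ESR1, the estrogen receptor (-1.40, adjusted p = 0.0109). GATA3, a luminal transcription factor (1.11), DACH1 (1.27) and TSPAN1 (1.53) rose. ESR1 kept its call in 4 of the 6 fits without an array, and the other genes named here kept theirs in all 6. With 1 array left out, the calls ranged from 11 (5 higher and 6 lower, without SUM44 replicate 3) to 24 (10 higher and 14 lower, without LCCTam replicate 1), and were 12 without SUM44 replicate 1 or 2, 13 without LCCTam replicate 2 and 20 without LCCTam replicate 3. The list was chosen with results of these arrays known, so its share is no independent evidence.

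**Figure D5:**
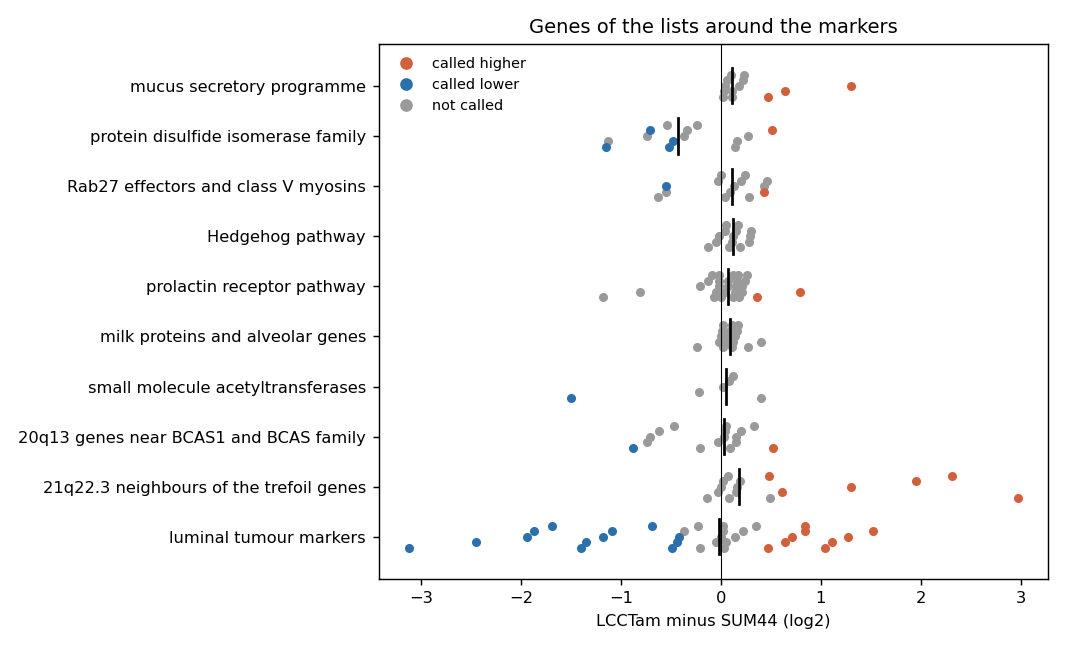
Difference LCCTam minus SUM44 (log2) of every measured gene in 10 lists around the markers, with 1 point per gene coloured by its call and a bar at the median of each list. The luminal tumour markers spread from -3.12 to 1.53, while the Hedgehog and milk protein genes lie near 0.

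The cells carried luminal epithelial markers. EPCAM, KRT8, KRT18, KRT19, ELF3 and CLDN4 averaged 11.11 to 11.25 in SUM44 arrays and 10.54 to 10.72 in LCCTam arrays, and 4 of the 6 were called lower (KRT8, KRT18, KRT19 and ELF3), beside 6.6% of all genes. These 4 are also among the 13 lower genes of the luminal tumour marker list above, so they are not a separate observation. Without each array in turn, KRT8 was called in all 6 fits and KRT18, KRT19 and ELF3 in 2 each. Basal markers averaged 5.58 to 5.71 and 5.59 to 5.92, mesenchymal ones 5.87 to 5.91 and 5.81 to 6.12, and leukocyte ones 5.73 to 5.87 and 5.70 to 5.99. None of these 15 genes was called. Arrays of whole cultures do not separate fewer cells that make a transcript from less transcript per cell.

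As a description, the genes whose levels followed each marker most closely over the 6 arrays were found by Pearson's r, which here carries the difference between groups as well as the spread within them. They were TTLL1 (0.9995) and RPS19 (0.9989) for TFF3, and GAK (0.9972) and ST6GAL1 (0.9969) for TFF2. For SCUBE2 they were LOXL1 (0.9991) and MCUB (0.9987), and for MLPH TMEM40 (0.9968) and ERBB4 (0.9961). NAT1 was followed by YWHAZ (0.9995) and DECR1 (0.9982), and AGR2 by BTF3 (0.9924) and HUS1 (0.9898). PRLR was followed by TUBA1C (0.9963) and ANXA4 (0.9923), and BCAS1 by KIF20B (0.981) and IFT88 (0.948). Each was picked as the highest over all genes tested, on only 6 arrays, so a high r here is no evidence of a link.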

How the data were processed

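RNA from 6 cultures, 3 per group, was hybridised to Affymetrix expression arrays. The deposited values are log2 levels from RMA (background correction, quantile normalisation and probe set summary), per the submitters' processing notes and GEO's design text for the series. Its version is not given in the sources used here. Because RMA gives the probe intensities of all arrays 1 distribution before the summary, a change in total RNA per cell would not show. No detection calls were used. Of 22283 probe sets, 68 controls were left out. The 19065 probe sets with 1 gene in the platform annotation were named from it, with symbols updated by gene ID through RefSeq GRCh38.p14. A gene was its probe set with the highest mean. Groups, taken from the titles, were compared two-sided in R 4.3.3 by limma 3.58.1 (lmFit, then eBayes), with Benjamini-Hochberg adjustment over all 11963 genes, or over all 22215 probe sets where stated, and called at adjusted p under 0.05. The fit was tested on simulated data with the same spread in both groups. It recovered 77.3% of 2-fold changes, and 4.73% of its calls were false. In the real data the median SD over genes was 0.189 in LCCTam and 0.111 in SUM44, and such unequal spread was not simulated. Titles call the arrays biological replicates but give no detail of how they were raised apart. A p-value here measures only the spread among these 6 cultures, which may be technical.

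The markers and lists were chosen with earlier results of these data known. None of the lists includes any of the 8 markers, so the counts over lists leave them out. Named are the 8 markers, the 2 list members of smallest adjusted p among those called, 10 preset partners (such as TFF1, RAB27A and JAK2) and the 2 genes most correlated with each marker. Neighbouring genes and further list members were chosen after their values were seen.

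Alternatives were all probe sets as units, averaging over a gene's probe sets, a robust fit with an intensity trend, median centring, cyclic loess, a filter on dim genes, the replicate block, adjusted p under 0.01 and each array left out.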

Additional observations from a re-analysis of the deposited data

How the results depend on the processing

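The calls of TFF3, TFF2, MLPH and SCUBE2 and their directions held in all 13 alternatives at the same threshold, and at adjusted p under 0.01 these 4 of the 8 genes were called. NAT1 kept its direction in all 13 and its call in 9. AGR2, BCAS1 and PRLR were called in none. The sign of the uncalled BCAS1 difference turned with cyclic loess (-0.022), and without 1 array it ran from -0.0044 (SUM44 replicate 1) to 0.18 (SUM44 replicate 3). That of PRLR turned with cyclic loess (-0.061), and without 1 array it ran from -0.010 (LCCTam replicate 3) to 0.14 (LCCTam replicate 1). BCAS1 has no value under the filter on dim genes, which removes it. Without 1 array, 4 or 5 of the 8 genes were called. Over all 11963 genes the count of calls moved from 1888 to 723 at adjusted p under 0.01, and to between 751 and 4241 without 1 array. With probe sets as units, 3002 of 22215 were called. That was 7.55% higher and 5.96% lower, beside 9.18% and 6.6% of genes. With 3 arrays in a group, every value has limited precision.

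Same-numbered cultures had correlations of deviations of 0.49, 0.349 and -0.0538. LCCTam replicates 1 and 2 but not replicate 3 correlated best with their own number. With 3 arrays in a group these values cannot settle whether the numbers pair the samples, and the main fit used no replicate block. With a replicate block 2152 genes and the same count of 5 markers were called.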
